A study of Homo sapiens with 6 samples.

Results

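The genes described here are 41 members of the NRF2 pathway and of glutathione and thioredoxin metabolism, chosen by symbol from a fixed list. That list was written with earlier results of these data known. All 41 were among the 28265 gene symbols of the count tables. They were measured by RNA sequencing in LN229, an established human glioblastoma cell line, in 6 libraries. The 3 control libraries carry the genotype label WT and the letters NC in their titles, which the labels do not explain. The genotype label of the other 3 is TRIM25 knockdown, and the series design gives the agent as shTRIM25, a short hairpin RNA. The labels do not give the hairpin's sequence, whether the cells are 1 clone or a pool, or whether the control cells carried a hairpin. All cells were LN229 grown in the same serum-containing medium, and no oxidant or drug is named for either group.

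TRIM25 mRNA went against the label. Its level was 35.3, 35.8 and 35.6 CPM (read counts scaled to library size) in the control libraries and 80.3, 80.0 and 88.5 CPM in the libraries labelled knockdown, a rise of 1.22 ± 0.07 on the log2 scale (SE; edgeR's Benjamini-Hochberg adjusted p = 3.23e-09). The groups are therefore called by their labels. Whether the labels were exchanged was not tested, and an exchange would turn every direction. Every direction is that of the libraries labelled knockdown relative to control, and none can be read as an effect of less TRIM25 mRNA. Total counts ran from 11349865 to 16404725 per library, and all 41 genes passed the low-count filter, among 14315 genes tested. Nothing in the labels says that the 3 libraries of a group are separate cultures. The p-values therefore rest on the spread between libraries, which may be technical. In these bulk libraries a lower level in each cell and fewer cells expressing a gene cannot be told apart. Of 21 markers of immune, endothelial, epithelial, neuronal, oligodendrocyte and erythroid cells, 14 stayed under 1 CPM in every library, and AIF1, KRT5 and ALAS2 were at 0. The 21 summed to between 676 and 708 CPM in control and between 592 and 629 CPM in the libraries labelled knockdown. Of 8 glial and glioma markers, CD44 (570 to 617 CPM) and EGFR (55.8 to 67.8 CPM) overlapped between the groups. VIM (3360 to 3640 CPM in control against 2950 to 3280 CPM), SOX2 (170 to 178 against 102 to 117 CPM), S100B (480 to 526 against 380 to 430 CPM) and OLIG2 (6.20 to 8.68 against 4.07 to 5.09 CPM) lay lower in the libraries labelled knockdown without overlap, and NES lay higher (601 to 613 against 719 to 742 CPM). GFAP was at most 0.58 CPM. The part of these markers in the results was not tested.

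NRF2, the product of NFE2L2, is a transcription factor that pairs with small MAF proteins on antioxidant response elements. KEAP1 holds it in the cytoplasm and hands it to a CUL3 ubiquitin ligase, while BACH1, which haem inactivates, competes for the same elements and is the main brake on the haem oxygenase gene HMOX1. Targets of NRF2 make and recycle glutathione, reduce quinones and carbonyls, supply NADPH and store iron.

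Promoter windows of RefSeq (build GRCh38.p14) were searched for the core letters of the antioxidant response element, TGACNNNGC, on both strands; the counts themselves were made on hg19 and no coordinates were carried over. A window runs from 250 bases before a transcription start and is 300 bases long. The table held 50 windows for 34 of the 41 members. It held none for AKR1B10, FTH1, GSR, GSS, HMOX1, PRDX1 and PRDX6. The core was found in 11 of the 50 windows (22.0%), belonging to 10 genes, beside 13.3% of all 35116 windows. By the results given further on, 6 of 19 members that were lower had a match (EPHX1, IDH1, ME1, GSTP1, MGST1 and CBR1). So did 4 of 14 that did not pass (PGD, GCLM, TXNRD1 and KEAP1), and SQSTM1, which was higher, had none. NQO1 and all 3 AKR1C genes also lacked it in these windows, which says only that the letters are not there. The 5 sequences printed next are the 250 bases before the start for 3 genes that were lower (CBR1, ME1 and GSTP1) and 2 that did not pass (GCLM and TXNRD1), to show the same core in both. Capitals mark the core, except for a second match in TXNRD1 that crosses the start and is not marked. Their positions are chr21:36069774-36070023, plus strand (CBR1), chr6:83431052-83431301, minus strand (ME1), chr11:67583562-67583811, plus strand (GSTP1), chr1:93909431-93909680, minus strand (GCLM) and chr12:104215529-104215778, plus strand (TXNRD1). Each sequence is given 5′ to 3′ on the gene's strand.
CBR1: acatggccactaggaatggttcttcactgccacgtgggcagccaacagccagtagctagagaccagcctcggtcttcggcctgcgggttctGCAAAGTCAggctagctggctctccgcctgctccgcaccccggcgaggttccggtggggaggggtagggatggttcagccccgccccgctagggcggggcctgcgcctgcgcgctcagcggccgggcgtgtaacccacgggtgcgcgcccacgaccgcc
ME1: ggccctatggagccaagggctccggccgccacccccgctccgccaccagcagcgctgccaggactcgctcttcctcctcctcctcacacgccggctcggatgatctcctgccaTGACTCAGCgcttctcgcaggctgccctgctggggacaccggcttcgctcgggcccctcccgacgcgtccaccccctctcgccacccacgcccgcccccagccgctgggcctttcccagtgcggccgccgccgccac
GSTP1: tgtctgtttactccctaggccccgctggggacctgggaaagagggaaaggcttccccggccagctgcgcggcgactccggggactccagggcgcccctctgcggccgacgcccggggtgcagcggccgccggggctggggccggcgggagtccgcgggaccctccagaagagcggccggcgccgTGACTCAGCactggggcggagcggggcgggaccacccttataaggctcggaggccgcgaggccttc
GCLM: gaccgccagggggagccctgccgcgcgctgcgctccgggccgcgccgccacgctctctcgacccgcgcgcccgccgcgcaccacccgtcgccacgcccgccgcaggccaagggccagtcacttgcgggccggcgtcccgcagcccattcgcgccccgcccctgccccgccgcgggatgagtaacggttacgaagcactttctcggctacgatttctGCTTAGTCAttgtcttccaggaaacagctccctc
TXNRD1: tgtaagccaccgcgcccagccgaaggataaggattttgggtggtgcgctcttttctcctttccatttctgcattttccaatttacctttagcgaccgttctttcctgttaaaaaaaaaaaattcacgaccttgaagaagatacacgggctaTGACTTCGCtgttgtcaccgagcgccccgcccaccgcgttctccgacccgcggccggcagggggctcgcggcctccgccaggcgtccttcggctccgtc
In ME1 and GSTP1 the match reads TGACTCAGC, starting 137 and 66 bases before the start, and so contains TGACTCA, the core letters of an AP-1 site. TGACTCA was searched on both strands too and was in 4 of the 50 windows (BACH1, GSTP1, ME1 and OSGIN1), 8.0%, beside 4.95% of all windows. In CBR1 and GCLM the core lies on the other strand, 159 and 34 bases before the start.

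AKR1C1 and AKR1C2 are printed because both were lower and the pair is near-identical in sequence. Their windows are chr10:4963165-4963414, plus strand (AKR1C1) and chr10:5003858-5004107, minus strand (AKR1C2), also GRCh38.p14, and capitals mark the bases that have no identical partner in a global alignment of the pair.
AKR1C1: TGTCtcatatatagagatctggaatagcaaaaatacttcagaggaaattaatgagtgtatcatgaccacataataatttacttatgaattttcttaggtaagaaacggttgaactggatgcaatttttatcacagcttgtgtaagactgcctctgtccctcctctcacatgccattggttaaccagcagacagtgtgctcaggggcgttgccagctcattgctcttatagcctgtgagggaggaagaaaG
AKR1C2: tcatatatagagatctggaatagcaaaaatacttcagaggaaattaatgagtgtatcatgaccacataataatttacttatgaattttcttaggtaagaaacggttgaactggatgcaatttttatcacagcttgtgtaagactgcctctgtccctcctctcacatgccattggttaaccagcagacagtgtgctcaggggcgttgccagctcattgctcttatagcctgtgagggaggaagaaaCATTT
The alignment had 245 identical bases in 254 columns (96.5%), and the differences sat at its 2 ends. AKR1C3 shared 71.4% and 69.6% with AKR1C1 and AKR1C2.

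Per length, the 41 genes spanned a wide range in control, from 2580 FPKM (reads scaled to gene length and library size) for FTL to 0.69 FPKM for AKR1B10, with GSTP1 and NQO1 at 490 and 486 FPKM. HMOX1 and SQSTM1 were higher in the libraries labelled knockdown, and the AKR1C genes, NQO1, all 4 listed glutathione transferase genes, PRDX1 and FTL were lower. Of the 41 members, 20 fell, 2 rose and 19 did not pass an adjusted p of 0.05. Across all tested genes 23.3% passed, 12.2% higher and 11.0% lower. The median log2 fold change of the members was -0.21, and that of all tested genes was -0.0038. In 26 members the 3 libraries labelled knockdown all lay below the 3 control libraries, and in 3 (HMOX1, SQSTM1 and MAFG) all lay above them. Over all tested genes these shares were 19.0% and 18.3%. Because the members were chosen with earlier results of these data known, their distance from these shares is not separate evidence. When libraries were left out 1 at a time, 18 of the 22 calls held in all 6 fits, and the other 4 (GSTP1, GPX1, TXN and ME1) are given with those values.

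**Figure D1:**
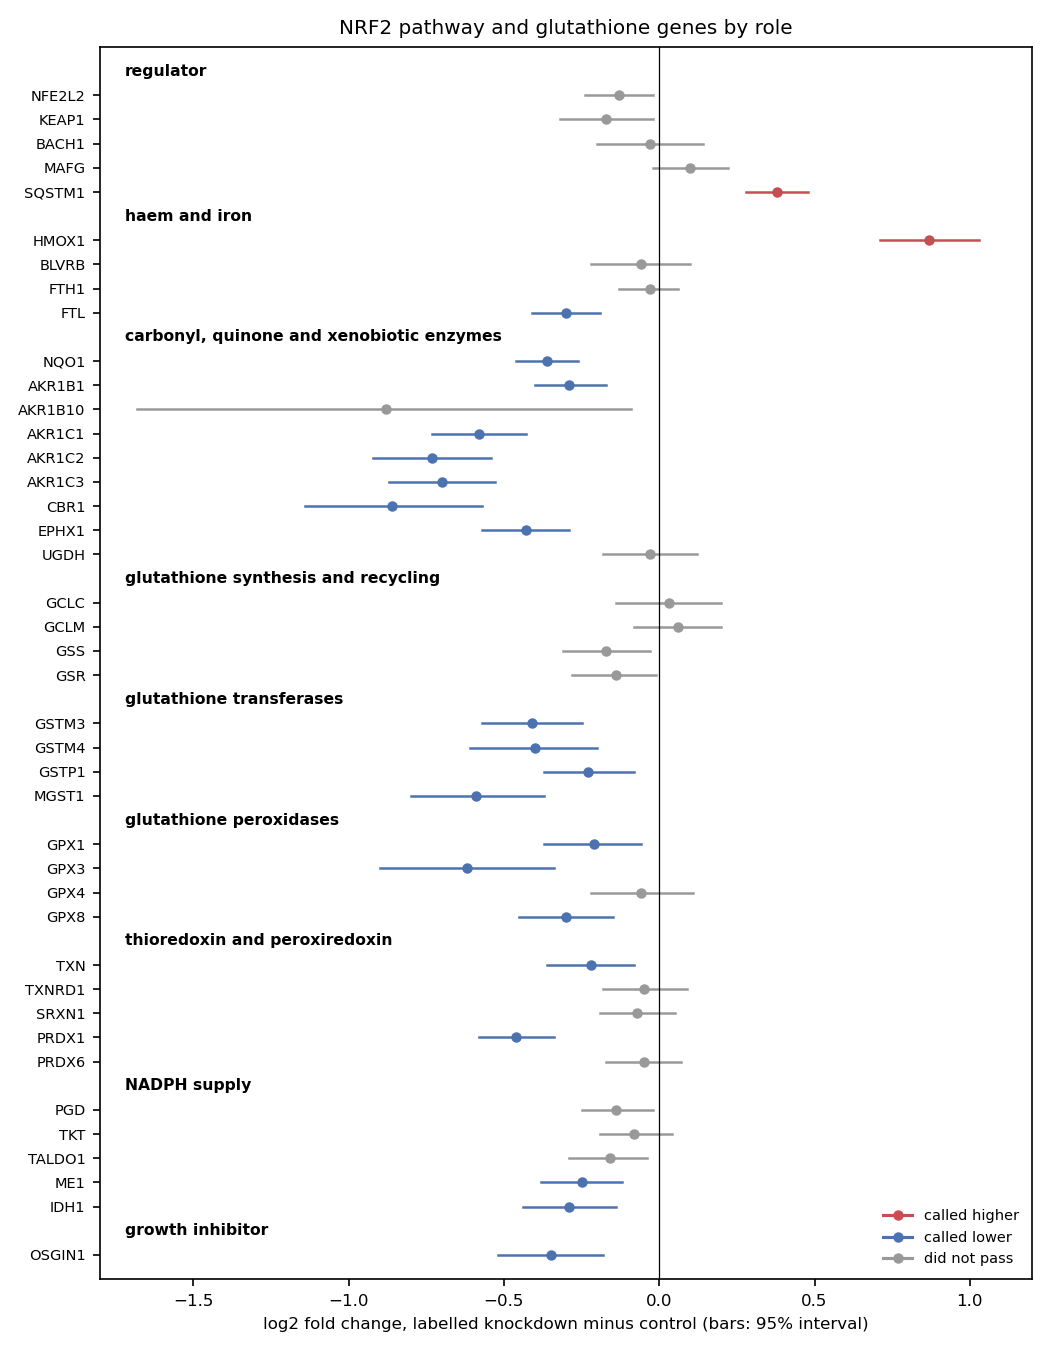
Log2 fold change of the 41 genes (x axis, labelled knockdown minus control) in blocks by role (y axis), with bars for the 95% interval of the edgeR fit and colours for the call at an adjusted p of 0.05. HMOX1 (0.87) and SQSTM1 (0.38) lie to the right of 0, 20 genes lie to the left with a call, and the grey genes did not pass.

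The regulators themselves moved little. NFE2L2, the NRF2 gene, was at 293.7, 297.0 and 300.0 CPM in control and 261.7, 279.4 and 274.2 CPM in the libraries labelled knockdown. Its log2 fold change was -0.13 (95% interval -0.24 to -0.02), with groups that did not overlap, and it did not pass (edgeR adjusted p = 0.0931). KEAP1, the NRF2 adaptor for degradation, was at 67.0, 70.6 and 72.4 CPM and then 67.4, 60.8 and 58.8 CPM, so the groups overlapped through labelled knockdown replicate 1 (log2 fold change -0.17, 95% interval -0.32 to -0.02, edgeR adjusted p = 0.0906). Without that library KEAP1 passed as lower (-0.22, edgeR adjusted p = 0.0105). BACH1, the competing repressor, was at 86.3, 87.0 and 77.3 CPM and then 72.9, 79.1 and 92.1 CPM. Its groups were interleaved, and the interval of its log2 fold change ran from -0.20 to 0.14. The small MAF gene MAFG was at 139.5, 138.4 and 143.8 CPM and then 153.6, 153.2 and 145.2 CPM, with an interval from -0.02 to 0.22 and an edgeR adjusted p of 0.226.

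SQSTM1 was the regulator that changed. It encodes p62, an autophagy receptor that binds KEAP1 and is itself an NRF2 target. It stood at 1138, 1115 and 1144 CPM in control and 1553, 1456 and 1412 CPM in the libraries labelled knockdown, a 1.30-fold rise (log2 fold change 0.38 ± 0.05, SE; edgeR adjusted p = 3.21e-05). Its lowest labelled knockdown library was well above the highest control library. In GENCODE v29, SQSTM1 shares 1582 bases of exon with MRNIP on the opposite strand, and the strand setting of the counting is not given in the sources used here. MRNIP itself had 10.0 ± 0.298 CPM in control (SD, n = 3) and 8.67 ± 0.607 CPM in the other group (SD, n = 3), far below SQSTM1.

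Among other regulators outside the 41, all 15 listed were tested, of which 2 rose and 1 fell, with a list median of 0.08 on the log2 scale. Across all tested genes 12.2% rose and 11.0% fell. NFE2L3, a relative of NRF2, rose by 0.47 ± 0.05 (SE) on the log2 scale, from 186.7 ± 2.47 to 258.3 ± 4.59 CPM (SD, n = 3 each). The small MAF gene MAFF rose by 0.30 ± 0.07 (SE). RBX1, the RING subunit of the KEAP1-CUL3 ligase, fell by 0.28 on the log2 scale. Its edgeR adjusted p of 0.0289 became 0.206 with control replicate 2 left out, 0.0702 with control replicate 3 left out, and 0.135 and 0.0765 with labelled knockdown replicates 2 and 3 left out. Leaving out labelled knockdown replicate 1 raised the list's calls from 3 to 7.

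HMOX1 had the larger rise of the 2 genes that rose. Heme oxygenase 1 opens the haem ring and releases iron, carbon monoxide and biliverdin. Its level was 45.2, 48.0 and 52.8 CPM in control and 94.5, 90.1 and 82.9 CPM in the libraries labelled knockdown. The rise was 1.83-fold (log2 fold change 0.87 ± 0.07, SE; edgeR adjusted p = 4.03e-07), and the spread within each group was under 6 CPM (SD 3.81 and 5.82, n = 3 each). BLVRB, a biliverdin and flavin reductase gene, was at 47.5, 46.6 and 48.0 CPM and then 47.9, 48.1 and 41.1 CPM, with an interval from -0.22 to 0.10 on the log2 scale.

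The ferritin subunit genes, which encode the iron storage shell, did not rise. FTH1, the heavy chain with ferroxidase activity, stood at 2943, 3047 and 3112 CPM in control and 2964, 3089 and 2852 CPM in the libraries labelled knockdown. The groups overlapped, and the 95% interval of the log2 fold change ran from -0.13 to 0.06. FTL, the light chain gene, was at 2177, 2194 and 2341 CPM and then 1935, 1812 and 1712 CPM. It fell 1.23-fold, by 0.30 ± 0.05 (SE) on the log2 scale (edgeR adjusted p = 5.45e-04), with no overlap. Per length, the level of FTH1 in control was 2530 FPKM and that of HMOX1 was 31.4 FPKM. Some reads of these genes cannot be placed with certainty: 19.9% of FTH1 and 18.3% of FTL transcript words of 50 bases also occur in other genes, mainly ferritin pseudogenes, and FTH1 shares 1267 bases of exon with BEST1 on the opposite strand. BEST1 was at 22.1 ± 0.426 and 27.2 ± 1.71 CPM (SD, n = 3 each).

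Of 32 other iron and haem genes 31 were tested, of which 4 rose, 6 fell and 21 did not pass, with a list median of -0.05. The shares over all tested genes were 12.2% higher and 11.0% lower. LCN2, the siderophore-binding lipocalin gene, had the largest rise of the list, 6.19-fold, with 8.93, 9.94 and 9.87 CPM in control and 65.0, 58.9 and 54.3 CPM in the libraries labelled knockdown. The mitochondrial iron importer gene SLC25A37 rose by 0.47 ± 0.06 (SE) on the log2 scale, and the haem exporter gene FLVCR1 by 0.25, with a call that held only without labelled knockdown replicate 1 among the 6 fits leaving a library out (edgeR adjusted p from 0.0513 to 0.184 in the other 5). CP, which encodes the ferroxidase ceruloplasmin, fell by 0.51, the haem transporter gene SLC48A1 by 0.38 and the ferric reductase gene CYBRD1 by 0.30. TFRC, the transferrin receptor gene, had a log2 fold change of -0.07 and did not pass, but passed as lower with offsets for length and GC (-0.16, edgeR adjusted p = 0.00432). HMOX2, the constitutive haem oxygenase gene, did not pass (-0.15 ± 0.09, SE). These last 2 genes were picked with their values in view. The list's 10 calls fell to 5 without control replicate 2, to 6 without control replicate 3 or labelled knockdown replicate 2 or 3, and stood at 14 without labelled knockdown replicate 1.

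**Figure D2:**
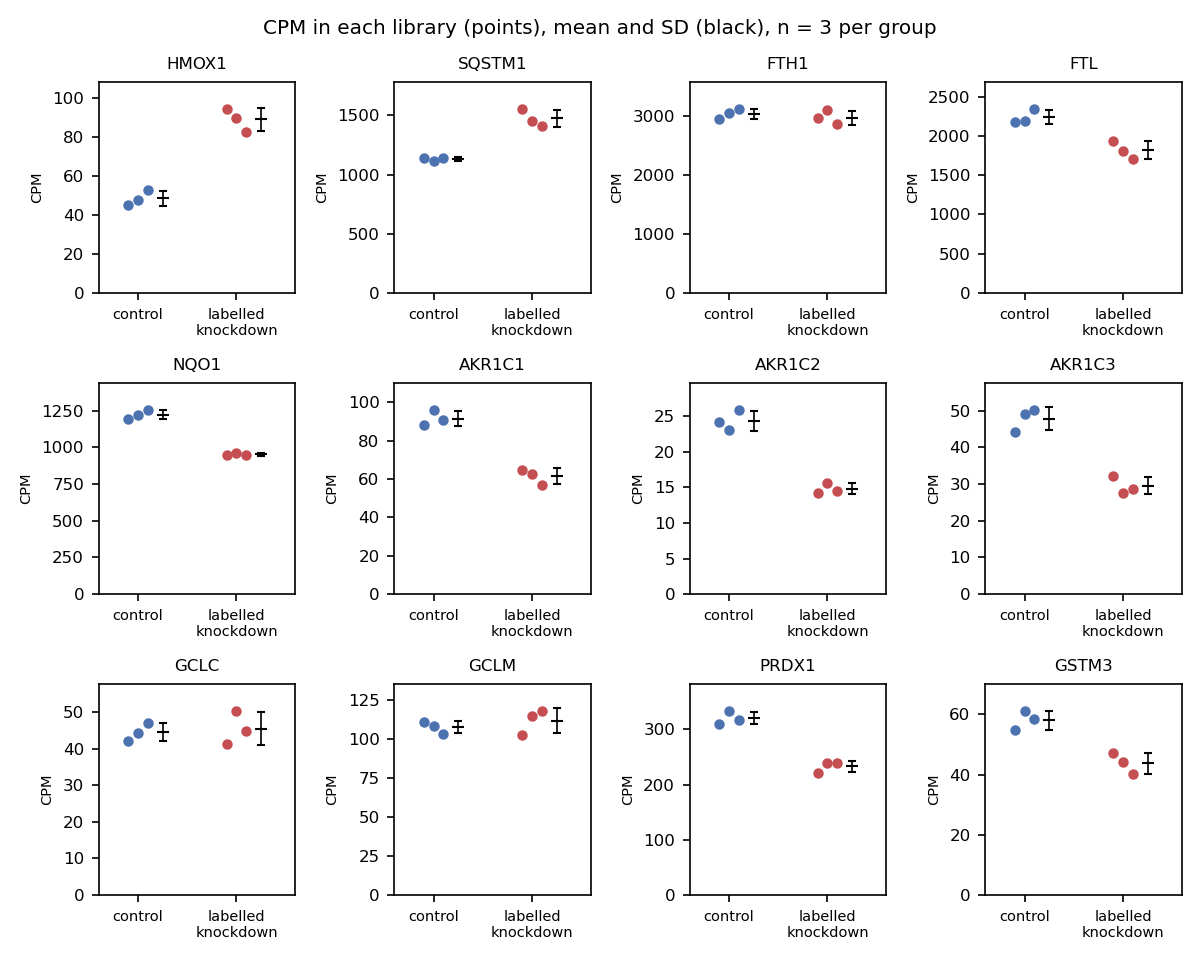
CPM (y axis, from 0) in each library (points) for 12 of the genes, control on the left and labelled knockdown on the right of each panel, with the mean and SD in black (n = 3). HMOX1 and SQSTM1 lie higher in labelled knockdown, FTL, NQO1, the AKR1C genes, PRDX1 and GSTM3 lower, and the points of FTH1, GCLC and GCLM overlap.

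Of 9 genes for enzymes that handle carbonyls, quinones and xenobiotics, 7 fell, none rose, and UGDH and AKR1B10 did not pass. The shares over all tested genes were 11.0% lower and 12.2% higher. NQO1, the quinone reductase that is the standard readout of NRF2 activity, was at 1193, 1222 and 1254 CPM in control and 947.0, 961.5 and 945.4 CPM in the libraries labelled knockdown. It fell 1.29-fold, a log2 difference of -0.36 ± 0.05 (SE), with an edgeR adjusted p of 3.1e-05. The 3 labelled knockdown libraries differed from each other by far less than from control. EPHX1, the microsomal epoxide hydrolase gene, fell from 212.4, 219.8 and 234.0 CPM to 178.2, 164.6 and 151.3 CPM, and AKR1B1, the aldose reductase gene, from 220.7, 221.9 and 230.5 CPM to 188.3, 185.2 and 178.2 CPM (log2 fold changes -0.43 and -0.29). CBR1, a carbonyl reductase gene, fell 1.81-fold, from 18.8, 21.8 and 21.0 CPM to 15.0, 9.99 and 9.32 CPM (log2 fold change -0.86 ± 0.14, SE). Labelled knockdown replicate 1 stood between the other 2 libraries of its group and control. UGDH, which makes the sugar donor for glucuronidation, did not pass, and its interval ran from -0.18 to 0.12.

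The AKR1C genes encode reductases of steroids, prostaglandins and lipid aldehydes. AKR1C1 was at 88.3, 96.0 and 90.7 CPM in control and 64.9, 62.6 and 56.7 CPM in the libraries labelled knockdown, a 1.5-fold fall. AKR1C2 was at 24.2, 23.1 and 25.9 CPM and then 14.2, 15.6 and 14.5 CPM, a 1.66-fold fall. AKR1C3 was at 44.3, 49.2 and 50.2 CPM and then 32.1, 27.7 and 28.6 CPM, a 1.63-fold fall. No library of one group reached the other group for any of the 3, and their edgeR adjusted p values were 1.56e-05, 1.93e-05 and 1.05e-05. The reads of AKR1C1 and AKR1C2 cannot be separated fully: 28.3% of the 50-base words of AKR1C1 transcripts occur in AKR1C2, and 38.1% of those of AKR1C2 occur in AKR1C1, against 2.89% of AKR1C3 words found in AKR1C1. The counts of AKR1C1 and AKR1C2 were therefore summed, together with those of AKR1C3, and tested as 1 gene. The sum was 156.9, 168.3 and 166.8 CPM in control and 111.1, 105.9 and 99.8 CPM in the libraries labelled knockdown. It fell 1.55-fold (log2 fold change -0.64 ± 0.06, SE; 95% interval -0.77 to -0.50; edgeR adjusted p = 1.85e-06). AKR1B10, a retinal and aldehyde reductase gene, was close to the detection limit, with raw counts of 17, 13 and 21 in control and 6, 3 and 15 in the libraries labelled knockdown. Its log2 fold change of -0.88 had an interval from -1.68 to -0.09 and did not pass (edgeR adjusted p = 0.101). Without labelled knockdown replicate 3, the library with 15 reads, the value was -1.51 and passed (edgeR adjusted p = 0.0297).

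HMOX1 was then set against the AKR1C genes within each library, which needs no scaling between libraries. Trends with gene length and GC content, given further on, need not cancel in such a ratio. HMOX1 has 1554 bp and 60.8% GC, and AKR1C1 has 6542 bp and 43.8% GC. The ratio of HMOX1 counts to summed AKR1C counts was 0.288, 0.285 and 0.316 in control and 0.850, 0.851 and 0.831 in the libraries labelled knockdown. On the log2 scale the mean ratio went from -1.75 ± 0.08 to -0.24 ± 0.02 (SD, n = 3 each), a difference of 1.51, or 2.85-fold. The exact two-sided permutation test over libraries gave p = 0.1, the smallest that 3 against 3 allow. With AKR1C1, AKR1C2 or AKR1C3 alone below the line the difference was 1.45, 1.6 and 1.58. HMOX1 and the AKR1C genes had been seen to move apart in earlier results of these data, so the ratio describes that contrast and is not separate evidence for it.

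**Figure D3:**
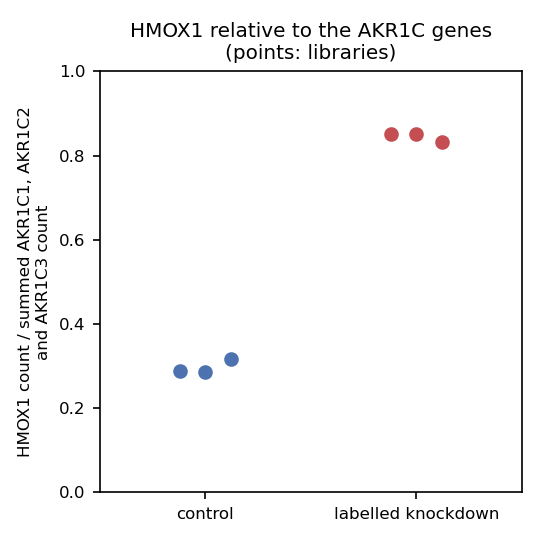
Ratio of HMOX1 counts to the summed counts of AKR1C1, AKR1C2 and AKR1C3 (y axis, from 0) in each library (points) of the 2 groups (x axis). The control libraries lie between 0.285 and 0.316 and the libraries labelled knockdown between 0.831 and 0.851.

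Among the 41, the genes of the enzymes that make and recycle glutathione did not pass. Of the 8 transferase and peroxidase genes 7 fell, beside 11.0% of all tested genes. GSTP1 and GPX1, among those 7, lost their calls with length and GC offsets (-0.05 and -0.08) and with the replicate block (edgeR adjusted p = 0.0876 and 0.131). GCLC, the catalytic subunit gene of the rate-limiting glutamate-cysteine ligase, was at 42.2, 44.2 and 47.0 CPM in control and 41.3, 50.3 and 44.8 CPM in the libraries labelled knockdown. GCLM, its modifier subunit gene, was at 111.1, 108.1 and 103.2 CPM and then 102.8, 114.5 and 117.8 CPM. In both genes the groups were interleaved, and the 95% intervals of the log2 fold change ran from -0.14 to 0.20 (GCLC) and from -0.08 to 0.20 (GCLM). GSS, the glutathione synthetase gene, and GSR, the reductase gene that regenerates glutathione with NADPH, had log2 fold changes of -0.17 ± 0.07 and -0.14 ± 0.06 (SE) with groups that did not overlap, and did not pass (edgeR adjusted p = 0.0653 and 0.114). GSS passed as lower without labelled knockdown replicate 1 (-0.19, edgeR adjusted p = 0.0257).

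All 4 glutathione transferase genes among the 41 fell, where the share over all tested genes was 11.0%. Transferase genes outside the 41 did not all fall and are given further on. MGST1, a membrane-bound transferase and peroxidase gene, fell 1.5-fold from 23.7, 28.5 and 21.9 CPM to 16.7, 16.8 and 15.8 CPM. GSTM3 fell 1.33-fold from 54.8, 61.1 and 58.5 CPM to 47.1, 44.3 and 40.1 CPM. GSTM4 fell 1.32-fold, from between 35.3 and 43.8 CPM in control to 32.9, 31.8 and 26.5 CPM, and shares 375 bases of exon with GSTM2 on the same strand. The groups of all 3 stood apart, with control replicate 1 the control library nearest to the other group in GSTM3 and GSTM4. GSTP1, the most abundant of the 4 per length (490 FPKM in control), was at 339.3, 360.2 and 387.1 CPM and then 335.6, 313.3 and 279.6 CPM (log2 fold change -0.23 ± 0.07, SE; edgeR adjusted p = 0.0223). With control replicate 2 or 3 left out its edgeR adjusted p was 0.081 and 0.131, and with labelled knockdown replicate 2 or 3 left out it was 0.0748 and 0.0922.

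Among the 41 members, 3 of the 4 glutathione peroxidase genes fell, beside 11.0% of all tested genes. GPX3, which encodes the secreted enzyme, fell 1.54-fold from 9.37, 9.94 and 9.81 CPM to 7.66, 5.92 and 5.52 CPM, and GPX8, which encodes an endoplasmic reticulum enzyme, fell 1.23-fold from 49.8, 50.3 and 49.4 CPM to 38.2, 40.1 and 42.7 CPM. GPX1, the main cytosolic enzyme gene, was at 265.6, 281.4 and 303.4 CPM and then 272.5, 246.3 and 216.1 CPM, so labelled knockdown replicate 1 lay inside the control range. Some of its reads may belong to pseudogenes (14.7% of its 50-base words). Its edgeR adjusted p of 0.0478 became 0.129 and 0.215 without control replicates 2 and 3, and 0.133 and 0.202 without labelled knockdown replicates 2 and 3. GPX4, which removes lipid peroxides and restrains ferroptosis, was at 162.1, 168.1 and 183.4 CPM and then 185.4, 164.2 and 145.3 CPM. Its highest and lowest libraries were both labelled knockdown, and its interval ran from -0.22 to 0.11 on the log2 scale.

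In the thioredoxin arm, which reduces protein disulfides in parallel with glutathione, 2 of 5 genes fell, beside 11.0% of all tested genes. PRDX1, the abundant cytosolic peroxiredoxin gene, fell 1.37-fold from 310.3, 332.9 and 317.4 CPM to 221.4, 238.5 and 238.8 CPM (log2 fold change -0.46 ± 0.06, SE; edgeR adjusted p = 2.07e-05). TXN, the thioredoxin gene, was at 190.6, 217.7 and 221.2 CPM and then 189.8, 178.3 and 173.4 CPM. Its groups just failed to overlap, and its edgeR adjusted p of 0.0234 became 0.130 and 0.129 without control replicates 2 and 3, and 0.103 and 0.0650 without labelled knockdown replicates 2 and 3. TXNRD1, which reduces thioredoxin, SRXN1, which repairs overoxidized peroxiredoxins, and PRDX6 had log2 fold changes of -0.05, -0.07 and -0.05, with 95% intervals inside -0.19 to 0.09. Of the 50-base words of SRXN1, 84.8% also occur in the gene model AL121758.1. That model shares 2292 bases of exon with SRXN1 on the same strand and is not among the symbols of the count tables. How reads in the shared bases were assigned is not given in the sources used here.

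NADPH drives both arms. The gene of malic enzyme, ME1, fell 1.19-fold from 149.7, 155.2 and 156.5 CPM to 119.4, 131.2 and 136.9 CPM, and its edgeR adjusted p of 0.00838 became 0.0534 with control replicate 2 left out. IDH1, the cytosolic isocitrate dehydrogenase gene, fell 1.22-fold from 82.2, 83.3 and 84.6 CPM to 60.5, 72.1 and 71.9 CPM, with labelled knockdown replicate 1 the lowest. The pentose phosphate genes PGD, TALDO1 and TKT did not pass (log2 fold changes -0.14, -0.16 and -0.08), though the groups of PGD and TALDO1 did not overlap. Without labelled knockdown replicate 1, TALDO1 (-0.18, edgeR adjusted p = 0.0232) and TKT (-0.13, edgeR adjusted p = 0.0423) passed as lower, and TALDO1 also passed with raw library totals (edgeR adjusted p = 0.0476). OSGIN1, an NRF2-induced growth inhibitor gene, fell 1.28-fold from 52.8, 56.8 and 54.0 CPM to 48.4, 42.0 and 38.2 CPM.

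**Figure D4:**
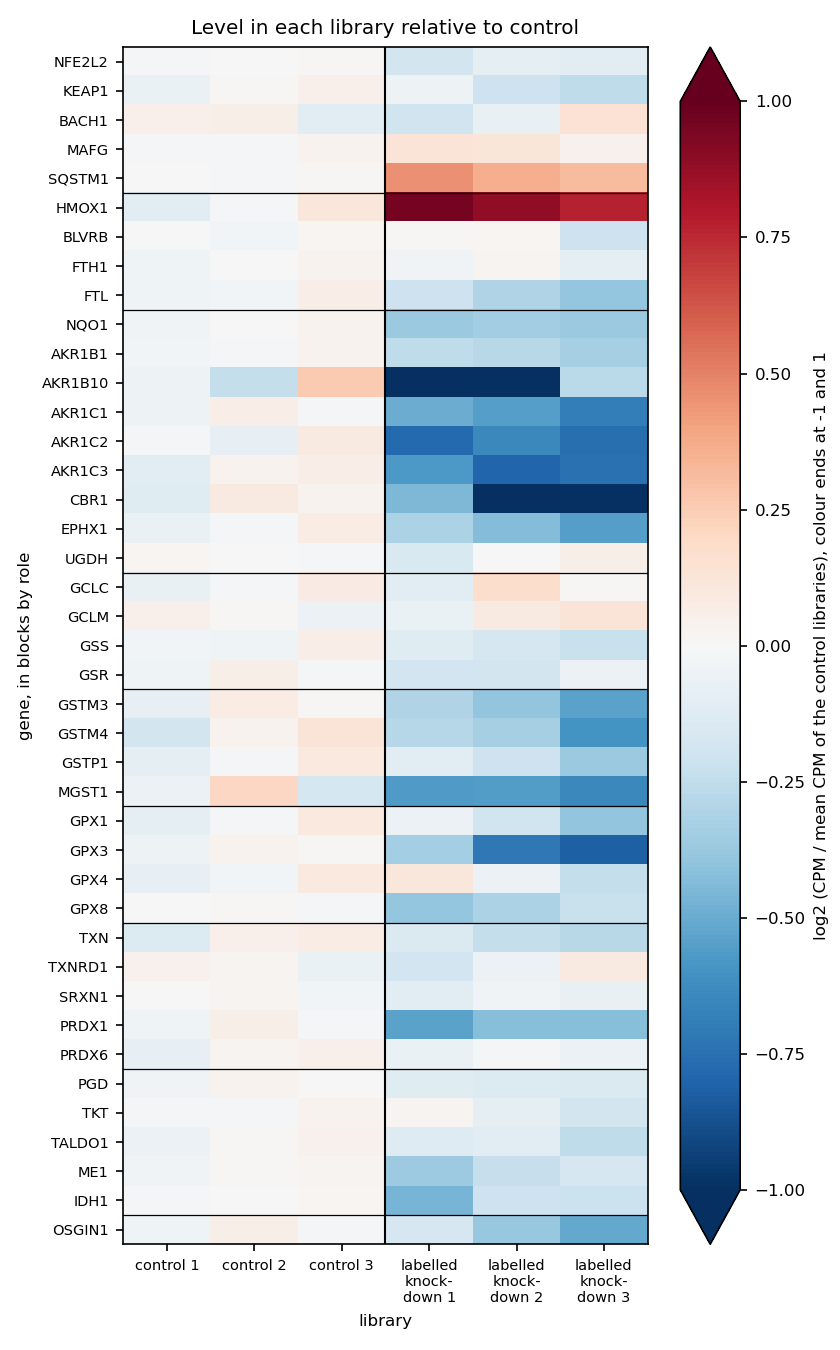
Level of the 41 genes (rows, in blocks by role) in the 6 libraries (columns), as the log2 of CPM over the mean CPM of the control libraries, red higher and blue lower, with colours ending at -1 and 1. HMOX1 and SQSTM1 are red in the 3 libraries labelled knockdown, the AKR1C genes, CBR1 and MGST1 are blue in all 3, and GPX1 and GPX4 differ between libraries of 1 group.

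Other targets of NRF2 outside the 41 fell more often than they rose. Of 23 listed 17 were tested, of which 8 fell, 2 rose and 7 did not pass, with a list median of -0.15. Beside them, 11.0% of all tested genes fell and 12.2% rose. CYP4F11, a cytochrome P450 gene at a low level, fell by 1.46 on the log2 scale, from 3.36 ± 0.144 to 1.22 ± 0.256 CPM (SD, n = 3 each). The exporter genes ABCC2 and ABCC3 fell by 0.69 and 0.61, and PIR and the porphyrin transporter gene ABCB6 each fell by 0.46. SLC7A11, the cystine importer gene that feeds glutathione synthesis and answers to ATF4 as well as NRF2, rose by 0.59 ± 0.08 (SE), from 204.7, 180.0 and 178.1 CPM to 247.2, 278.2 and 320.7 CPM.

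Of 40 other glutathione, thioredoxin and antioxidant genes 36 were tested, of which 12 fell, 3 rose and 21 did not pass, with a list median of -0.05. Over all tested genes 11.0% fell and 12.2% rose. The glutaredoxin gene GLRX fell by 0.47, the mitochondrial isocitrate dehydrogenase gene IDH2 by 0.45 and the peroxiredoxin gene PRDX2 by 0.43 on the log2 scale. GSTO2, at about 1 CPM, and GSTM2 fell by 1.19 and 0.40. With 1 library left out, the GSTO2 call held only without labelled knockdown replicate 3 (edgeR adjusted p from 0.0608 to 0.156 in the other 5 fits). The GSTM2 call was lost without replicate 2 or 3 of either group (edgeR adjusted p from 0.0837 to 0.118). SOD2, the mitochondrial superoxide dismutase gene, rose by 0.43 ± 0.05 (SE), from 372.2, 369.6 and 377.5 CPM to 481.3, 489.2 and 536.8 CPM. Of the list's other transferase genes, GSTO1 (-0.34) and MGST3 (-0.28) fell too, MGST3 not without control replicate 2 (edgeR adjusted p = 0.0509). GSTK1 (-0.20), GSTA4 (0.02), GSTZ1 (-0.06) and GSTCD (0.18) did not pass, nor did the peroxidase gene GPX7 (-0.02). The list's 15 calls became 8 without control replicate 2.

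Fold change followed gene length and GC content across the tested genes (Spearman's rho 0.30 and -0.26 over 13724 genes, which share libraries and are not replicates). Over the 41 genes the same rho values were 0.17 and 0.20. Libraries of the same group also differed by length: against the group mean, rho over the 41 genes was 0.54 for control replicate 1, -0.50 for control replicate 3, -0.49 for labelled knockdown replicate 1 and 0.48 for labelled knockdown replicate 3. With GC content rho was 0.65 for labelled knockdown replicate 1 and -0.66 for labelled knockdown replicate 3. For control replicates 1 and 3 it was -0.15 and 0.33. The members are shorter than the tested genes (median 2473 against 3592 bp) and have a higher GC content (53.6% against 49.7%). With offsets for this trend 20 members were lower (16.2% of all genes) and 3 higher (15.4% of all genes), and the median of the members was -0.15. The calls of 20 of the 22 genes held. GSTP1 (741 bp) and GPX1 (1430 bp) lost theirs, at log2 fold changes of -0.05 and -0.08. NFE2L2 (-0.15), BACH1 (-0.16) and MAFG (0.11) passed with the offsets, at edgeR adjusted p of 0.00274, 0.0148 and 0.0341. HMOX1 had a log2 fold change of 0.99, and FTL, the shorter ferritin gene at 871 bp, one of -0.15. BLVRB, FTH1 and GPX4, which did not pass in either fit, went to 0.11, 0.09 and 0.09.

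**Figure D5:**
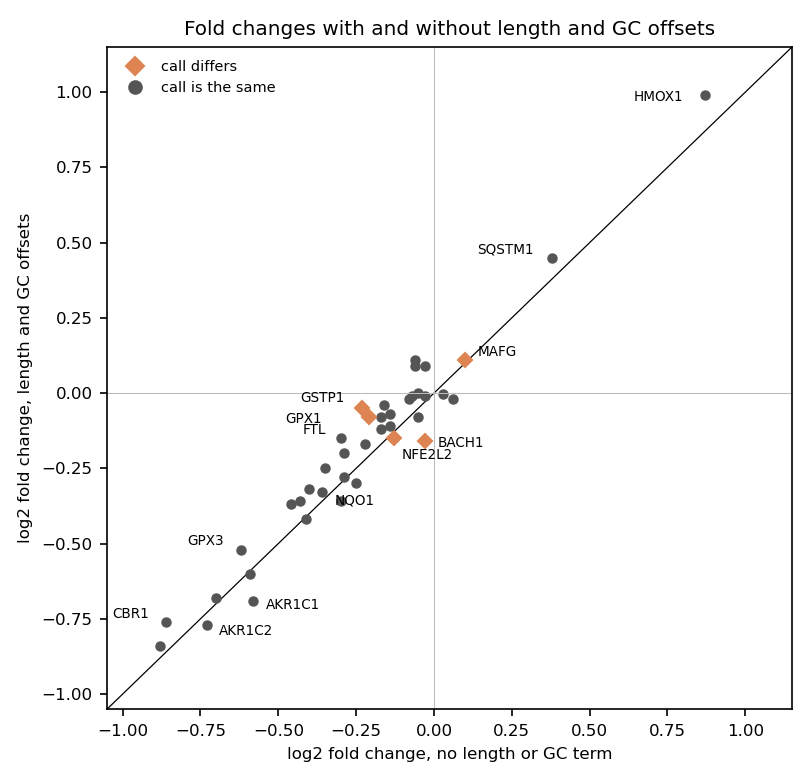
Log2 fold change of each of the 41 genes (points) without a length or GC term (x axis) and with offsets for both (y axis), with the line of equal values. Diamonds mark the 5 genes whose call differs (GSTP1, GPX1, NFE2L2, BACH1 and MAFG), all between -0.23 and 0.11, while HMOX1, SQSTM1, CBR1 and the AKR1C genes lie farther from 0 on both axes.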

How the data were processed

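Libraries of 6 LN229 samples were made with a kit for stranded total RNA, according to the protocols in the labels. The genotype label set the group, and the titles gave the replicate. FastQC, MultiQC, Trim Galore, HISAT2 and build hg19 are named in the submitters' processing notes. How reads were assigned to genes (program, strand, annotation) is not given in the sources used here. The authors deposited raw counts per gene and library. The deposited FPKM were used for levels per length and to recover gene lengths (whole within 0.001 bases for all 21754 genes with a count), and the deposited TPM were not used.

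Counts were fitted in R 4.3.3 with edgeR 4.0.16 (filterByExpr, TMM, glmQLFit, glmQLFTest, group as the only term) over all genes, and p-values were Benjamini-Hochberg adjusted over the 14315 genes tested, holding 99.9% of counts. Genes under 0.05 were called. The standard error is the log2 fold change over the square root of F, and 95% intervals come from the t distribution. CPM use TMM-scaled library sizes. Alternatives were DESeq2 1.42.0, limma-voom (limma 3.58.1), other scaling and filters, a replicate block, length and GC offsets (splines per library, GC from GENCODE v29) and each library left out. Same-numbered libraries did not deviate together (r between -0.217 and 0.008), so no pairing was used. Total counts ran from 11349865 to 16404725. No library was a copy of another (chi-square per degree of freedom from 1.95 to 8.54 within groups). The fit was tested on simulated data.

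The members and gene lists were chosen with earlier results of these data known. Values per library are given for called members and for NFE2L2, KEAP1, BACH1, MAFG, FTH1, GCLC and GCLM, and also for BLVRB, GPX4 and AKR1B10, chosen after their values were seen. Up to 6 called genes were named per other list, by largest change. The tested transferase genes and GPX7 were named in addition, with their values in view. Some genes of these lists are not reported here by name.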

Additional observations from a re-analysis of the deposited data

How the results depend on the processing

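Leaving out 1 library moved the number of genes called from 3330 to between 1826 (without control replicate 2) and 4941 (without labelled knockdown replicate 1), and also to 1877 without control replicate 3 and 1868 without labelled knockdown replicate 2. The replicate block gave 1891 genes, 2 members higher and 17 lower (GPX1, GSTP1 and TXN lost), 8 calls in the other glutathione and thioredoxin list and 5 in the iron and haem list. Of all 14315 tested genes the block fit called 967 higher and 924 lower. The range over the fits without a library was 16 to 24 for members called lower, 2 to 7 for the other regulators, 8 to 17 for the other glutathione and thioredoxin genes and 5 to 14 for the iron and haem genes. Members called higher stayed at 2 except for 3 with length and GC offsets, which also gave 6 calls among the other regulators. The summed AKR1C genes kept their direction and call in every fit run (-0.70 to -0.59), and the ratio of HMOX1 to them its direction in every setting run (1.45 to 1.6). The sign of a member that did not pass changed in 13 pairs of gene and setting, over 5 settings: with length and GC offsets BLVRB (0.11), FTH1 (0.09), GPX4 (0.09), GCLC (-0.0021), GCLM (-0.02) and PRDX6 (0.00034); without labelled knockdown replicate 1 BACH1 (0.05), UGDH (0.04) and TXNRD1 (0.03); without labelled knockdown replicate 3 BLVRB (0.02) and GPX4 (0.03); and GCLC without control replicate 1 (-0.0048) or labelled knockdown replicate 2 (-0.04). Over the fits without a library the ranges were -0.13 to 0.05 for BACH1, -0.09 to 0.02 for BLVRB, -0.08 to 0.04 for UGDH, -0.04 to 0.1 for GCLC, -0.14 to 0.03 for GPX4 and -0.12 to 0.03 for TXNRD1. The cause was not tested. The filter at 1 CPM in 3 libraries left AKR1B10 out. AKR1B10 had at most 21 reads in a library, and its counts in the libraries labelled knockdown were 6, 3 and 15.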
